A study of Mus musculus with 57 samples.

Results

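The comparison described here is the effect of a homozygous R707W knock-in of the endogenous Mfn2 gene on the inguinal white adipose tissue (WAT) of mice kept on a high-fat diet (HFD). It took in every mouse of that tissue and diet, 8 knock-in (KI) and 8 wild-type (WT), with 2 technical replicate libraries per mouse merged into 1 column of counts, which makes 32 of the 57 samples of the study and 16 of its 41 columns. All 16 were male mice on the C57BL/6J background, WT littermates served as controls, and the diet gave 45% of its energy as fat for 6 months from the age of 5 weeks. The KI allele also carries a silent change that creates an EcoRV site. The line was made by CRISPR-Cas9 and expanded from 1 founder, and the change is present in all tissues, so an effect seen in fat need not have arisen in fat. The other columns were inguinal WAT of 6 KI and 7 WT mice on chow and brown adipose tissue (BAT) of 6 KI and 6 WT mice on HFD, and they were used only to test whether an effect differed by diet or depot.

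Mitofusin 2 is a GTPase of the outer mitochondrial membrane that joins mitochondria to each other and tethers them to the endoplasmic reticulum, and people who carry R707W on both alleles have a form of lipodystrophy. Mitochondrial stress in mammals raises translation of ATF4, which switches on genes of amino acid synthesis and tRNA charging as part of the integrated stress response. White adipocytes store triglyceride, make fatty acids from glucose, sense sterols through SREBP proteins, and secrete leptin, adiponectin and several acute-phase proteins. The fat pad also holds progenitors, vessels, nerves and many macrophages and other leukocytes, all of which contribute RNA to a bulk library.

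Column totals ran from 17572752 to 24498516 counts in the KI mice and from 19835504 to 25680411 in the WT mice, about as deep for both genotypes, while the chow and BAT columns held 8042591 to 11720458. Levels are given in CPM, a gene's count scaled to the total of its library after that total was adjusted by TMM. TMM sets a factor per library that centres most genes. Levels are listed as the lowest, the median and the highest value of a genotype, and compare mice rather than genes. Of 16471 genes tested with edgeR's quasi-likelihood test, 1886 passed an adjusted p of 0.01 (11.5%) and are called higher or lower here. They divide into 1023 called higher in KI mice (6.21% of the genes tested) and 863 called lower (5.24%). Mfn2 itself measured 148, 176 and 223 CPM in WT mice and 183, 234 and 274 CPM in KI mice, a log2 fold change of 0.34 that was not called (adjusted p = 0.0114). A count over the whole gene cannot see the changed codon, so it does not check the genotype labels.

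The tissue label was checked against marker genes. The 22 white adipocyte markers summed to 58800, 64400 and 84400 CPM in WT mice and 53200, 62100 and 78400 CPM in KI mice, so every library was rich in adipocyte RNA. Some mice stood apart for other cells. Cd79a, a signalling chain of the B cell receptor, measured 241 CPM in KI mouse 2, 127 CPM in WT mouse 2 and 92.5 CPM in WT mouse 6, against 0.768 to 4.35 CPM in the other 13 mice, and Ms4a1, Ccr7 and Cxcl13 were high in those 3 mice too. Skeletal muscle markers summed to 6840 CPM in KI mouse 3 and 3740 CPM in KI mouse 5, against 117 to 475 CPM in the other KI mice and 164 to 2160 CPM in WT mice. Without the 3 lymphocyte-rich mice 1750 genes were called, 1492 of them among the 1886, and without the 2 muscle-rich KI mice 1476, 1377 of them among the 1886. These 2 exclusions were chosen after seeing the data. In bulk tissue, fewer cells of a type and less RNA per cell cannot be told apart.

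**Figure D1:**
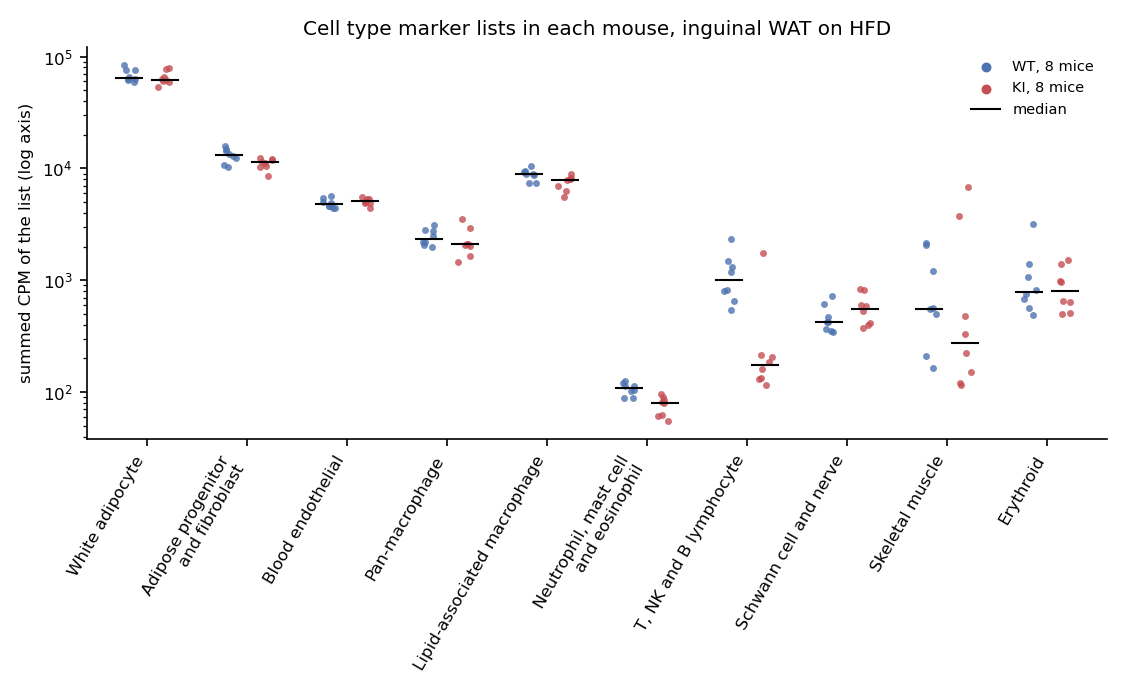
Summed CPM of 10 marker lists (log axis) in each WT and KI mouse, with the median of each genotype as a bar. White adipocyte, endothelial and pan-macrophage sums overlap fully between genotypes, and 2 KI mice are high for muscle markers. The lymphocyte sum is lower in 7 KI mice (116 to 217 CPM) than in any WT mouse (540 to 2350 CPM), with KI mouse 2 at 1750 CPM. That sum rests largely on 1 gene, Ighm, which is 433 of 540 CPM in WT mouse 8, 759 of 820 CPM in WT mouse 3 and 150 of 217 CPM in KI mouse 4. Only 2 of the 23 lymphocyte markers were called, so the gap does not describe the list as a whole.

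The median log2 fold change of all genes was 0.0055 and 50.8% of genes were positive. The scaling of the counts centres most genes near no change, so these values cannot show whether all RNA shifted. Rises and falls differed in size. The median called rise was 0.50 on the log2 scale and the median called fall -0.82. Only 165 rises exceeded 1 on the log2 scale, against 347 falls beyond -1, and 502 of the 1023 rises were below 0.5. The genotypes did not overlap at all in CPM for 783 genes (4.75% of those tested), of which 772 were called, 385 higher and 387 lower. Protein-coding genes were called more often (12.2% of 13773) than long non-coding RNA genes (8.11% of 1763) or pseudogenes (5.95% of 588).

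**Figure D2:**
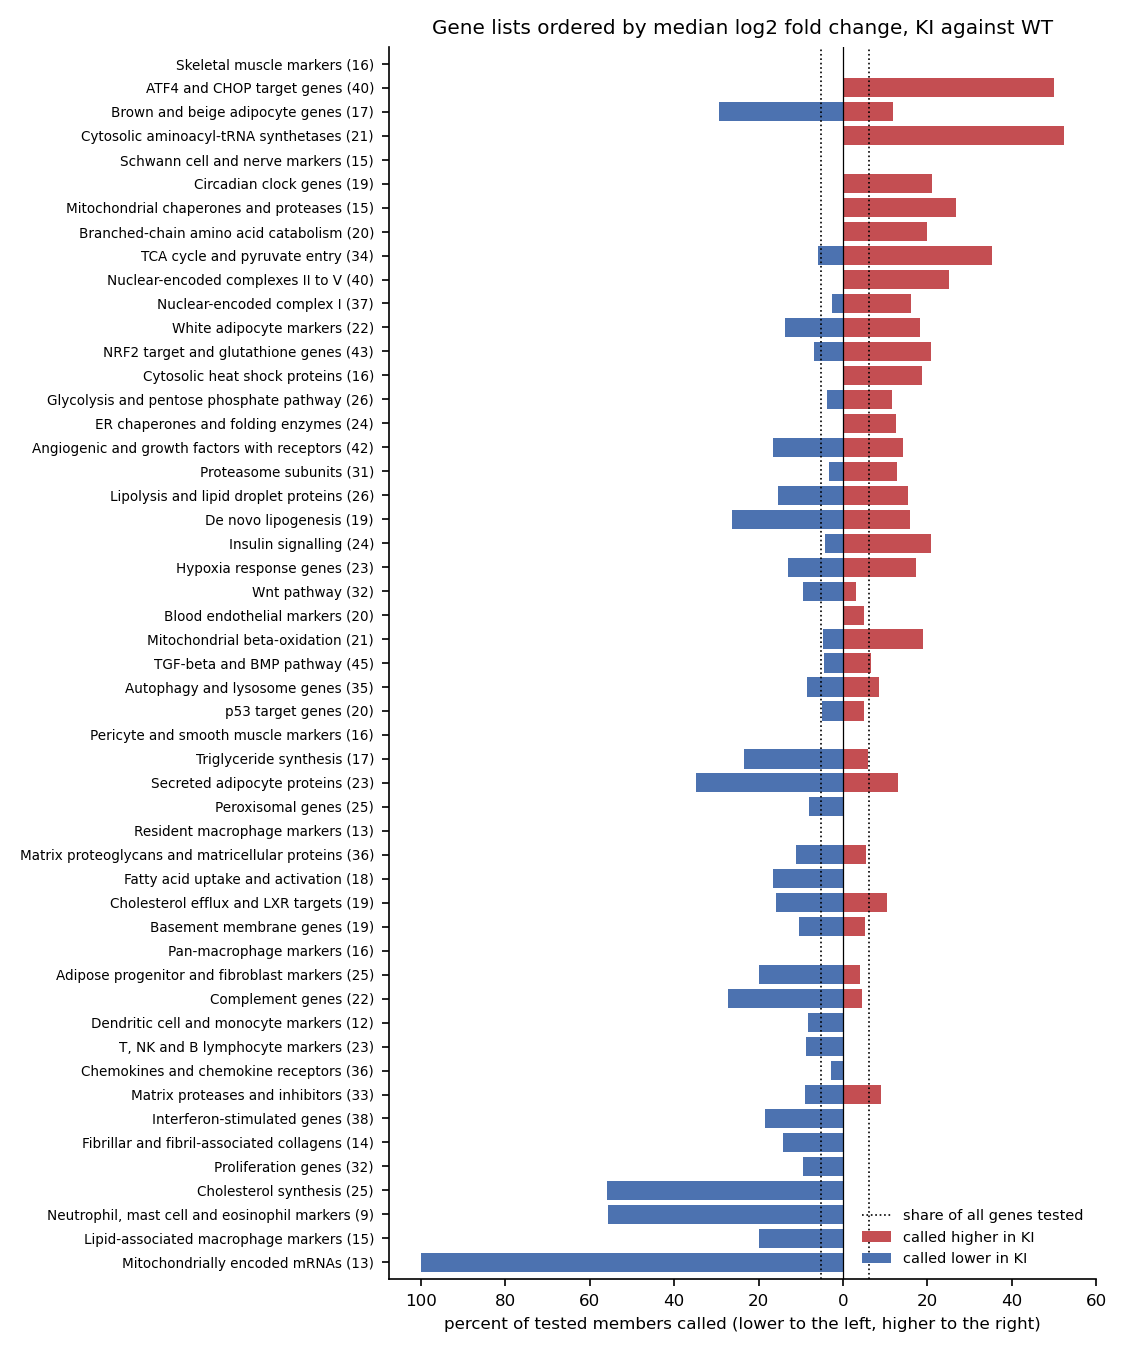
Percent of tested members called higher (right) and lower (left) in KI mice for 51 gene lists with the number of tested members in brackets, ordered by median log2 fold change, with dotted lines at the shares of all genes, 6.21% and 5.24%. The longest bars to the left are mitochondrially encoded mRNAs, cholesterol synthesis and neutrophil, mast cell and eosinophil markers, and the longest to the right are cytosolic aminoacyl-tRNA synthetases and ATF4 and CHOP target genes.

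Genes of cholesterol synthesis fell together. Of 25 tested, 14 were called lower and 0 higher, the list's median was -0.54, and 23 of 25 fold changes were negative. The count was 13 without the lymphocyte-rich mice, 11 without the muscle-rich KI mice, and 11 to 15 with any single mouse left out. Insig1 (ENSMUSG00000045294, chromosome 5, 28071363 to 28078662, GRCm38), the membrane protein that holds SREBP precursors in the endoplasmic reticulum when sterol is plentiful and is itself a target of SREBP, measured 97.6, 183 and 387 CPM in WT mice and 38.9, 44.6 and 64.6 CPM in KI mice. WT mice spread widely for Insig1, yet the genotypes did not overlap (log2 fold change -2.10 ± 0.25, SE, n = 8 mice per genotype, adjusted p = 2.04e-05 by edgeR).

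The falls reached enzymes along the whole pathway. Hmgcs1, which makes HMG-CoA at its entry, measured 215, 319 and 408 CPM in WT mice and 141, 151 and 220 CPM in KI mice, with 1 KI mouse just inside the WT range (log2 fold change -0.96, adjusted p = 1.75e-05). Nsdhl and Cyp51, which remove methyl groups from sterol intermediates, changed by -1.44 and -1.08 on the log2 scale with no overlap between genotypes. Tm7sf2, Dhcr7, Idi1, Hsd17b7, Sqle, Mvd, Pmvk, Msmo1 and Mvk were the other members called lower. Srebf2, which encodes the main sterol-sensing SREBP, was not called (0.24, adjusted p = 0.158). Hmgcs1, Cyp51 and Srebf2 fell outside the fixed rule for named genes and were chosen after their values were seen.

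Because these genes moved together, their promoters were read from RefSeq (GRCm38.p6), from 250 bases before to 50 bases after each annotated start. A CCAAT box, which binds NF-Y beside many SREBP sites, was found on either strand in the promoters of 12 of the 12 called members that had one listed, in 17 of 18 listed for all tested members, and in 4876 of 11643 promoters of tested genes (41.9%). The sterol response element searched as TCACNCCAC was found in 1 of those 12, Hmgcs1, and in 1.4% of all. The promoters of 4 called members whose levels are given above are printed to show these letters in place, 5′ to 3′ along the gene, with CCAAT (read as ATTGG where it lies on the other strand) and the sterol response element in capitals. Insig1 is chr5:28071162-28071461 on the plus strand, Nsdhl chrX:72918271-72918570 plus, Cyp51 chr5:4104648-4104947 minus and Hmgcs1 chr13:119690101-119690400 plus.
Insig1: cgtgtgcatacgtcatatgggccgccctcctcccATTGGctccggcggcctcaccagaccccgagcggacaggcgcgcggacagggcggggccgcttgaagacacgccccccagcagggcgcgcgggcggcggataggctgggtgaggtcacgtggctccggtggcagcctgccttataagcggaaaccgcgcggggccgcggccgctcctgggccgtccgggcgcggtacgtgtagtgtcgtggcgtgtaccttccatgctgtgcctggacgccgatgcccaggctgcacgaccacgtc
Nsdhl: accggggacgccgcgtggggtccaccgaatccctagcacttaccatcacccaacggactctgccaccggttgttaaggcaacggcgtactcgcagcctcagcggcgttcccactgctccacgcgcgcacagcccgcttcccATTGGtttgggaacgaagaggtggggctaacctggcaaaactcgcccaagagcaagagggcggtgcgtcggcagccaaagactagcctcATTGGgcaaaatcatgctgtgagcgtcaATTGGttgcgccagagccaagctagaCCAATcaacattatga
Cyp51: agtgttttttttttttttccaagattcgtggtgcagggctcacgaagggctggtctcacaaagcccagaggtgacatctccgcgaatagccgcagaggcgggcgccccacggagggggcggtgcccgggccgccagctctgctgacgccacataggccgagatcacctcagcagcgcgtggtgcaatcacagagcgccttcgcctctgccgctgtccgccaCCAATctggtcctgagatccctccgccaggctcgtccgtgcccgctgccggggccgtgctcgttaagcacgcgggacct
Hmgcs1: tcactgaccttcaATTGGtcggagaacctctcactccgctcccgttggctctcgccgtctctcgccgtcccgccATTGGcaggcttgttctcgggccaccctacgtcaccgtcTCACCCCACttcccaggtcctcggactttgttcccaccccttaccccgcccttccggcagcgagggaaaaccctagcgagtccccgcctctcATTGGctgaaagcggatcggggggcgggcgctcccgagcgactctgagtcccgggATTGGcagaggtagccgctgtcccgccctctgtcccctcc
Insig1 and Cyp51 held 1 CCAAT box each, Nsdhl 4, and Hmgcs1 4 together with the sterol response element, which begins at position -137 from its start. A match of letters is not a measured binding site, and a promoter without a match says nothing about the factor.

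Sterol export and storage moved in both directions. Apoe (ENSMUSG00000002985, chromosome 7, 19696109 to 19699188), a lipoprotein component made by macrophages and adipocytes, measured 2370, 3010 and 3340 CPM in WT mice and 5750, 6590 and 7600 CPM in KI mice, so that the lowest KI mouse stood far above the highest WT mouse (log2 fold change 1.18 ± 0.09, adjusted p = 7.38e-08). Soat2, which esterifies cholesterol, rose by 2.35 from a low WT median of 0.723 CPM. Abca1, the transporter that loads cholesterol onto apolipoprotein A-I, fell by 0.36, and Npc2, which carries cholesterol out of lysosomes, fell by 0.57 without overlap. Of 19 genes of cholesterol efflux and LXR targets, 2 were called higher and 3 lower (8 called without KI mouse 5), and the median was -0.15.

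**Figure D3:**
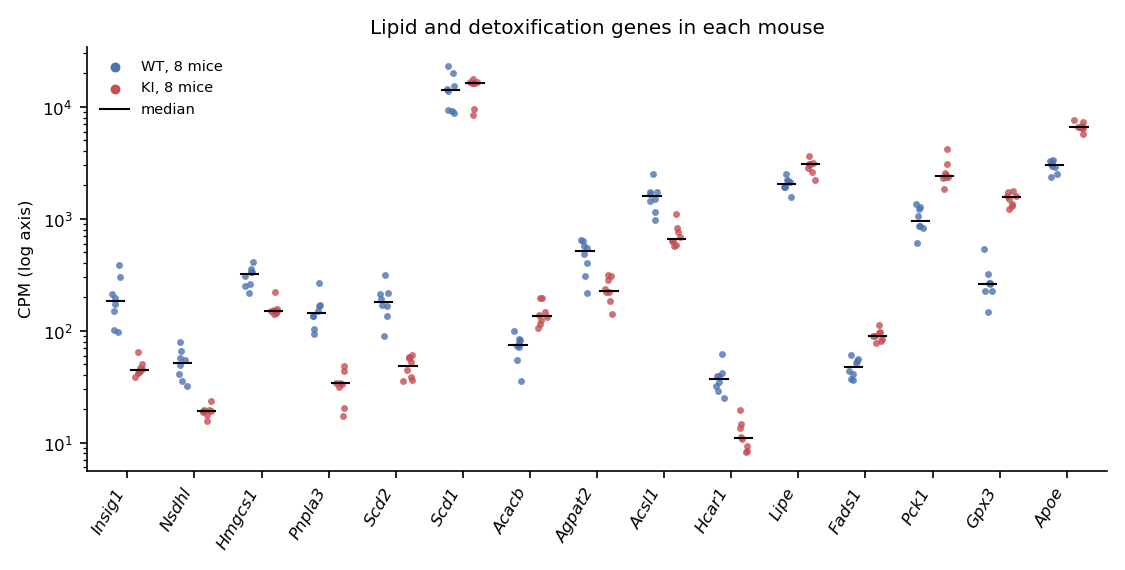
CPM (log axis) of 15 lipid and detoxification genes in each WT and KI mouse, with the median of each genotype as a bar. Insig1, Nsdhl, Pnpla3 and Scd2 are lower in every KI mouse than in any WT mouse, Fads1, Pck1, Gpx3 and Apoe are higher in every KI mouse, and Scd1 overlaps fully.

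Fatty acid synthesis showed no common direction. Of 19 genes of de novo lipogenesis, 3 were called higher and 5 lower, the median was 0.05, and the summed level of the list overlapped between genotypes (11100, 17600 and 28000 CPM in WT mice, 10300, 19300 and 20200 CPM in KI mice). Pnpla3, a lipid droplet protein induced by SREBP1c, measured 92.6, 142 and 267 CPM in WT mice and 17.2, 33.9 and 48.1 CPM in KI mice (log2 fold change -2.21 ± 0.24, adjusted p = 5.51e-06). Scd2 (ENSMUSG00000025203, chromosome 19, 44293676 to 44306864), one of the desaturases that make monounsaturated fatty acids, measured 89.6, 179 and 316 CPM in WT mice and 35.4, 48.6 and 61.1 CPM in KI mice (log2 fold change -1.96 ± 0.21, adjusted p = 4.39e-06). Both genes separated the genotypes in every mouse. Scd1, the main desaturase of fat, did not, with a WT median of 14200 CPM beside a KI median of 16400 CPM (0.05, adjusted p = 0.907).

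The enzymes that supply and use cytosolic acetyl-CoA also split. Slc25a1, the mitochondrial citrate carrier, measured 195, 320 and 522 CPM in WT mice and 119, 158 and 194 CPM in KI mice (log2 fold change -1.08, adjusted p = 0.000175). Acss2, which makes acetyl-CoA from acetate, fell by 1.09 without overlap. Acacb, the acetyl-CoA carboxylase at the mitochondrial surface whose product restrains fatty acid entry into mitochondria, rose from 35.8, 74.9 and 100 CPM to 106, 135 and 196 CPM (1.00 ± 0.18, adjusted p = 0.000708). Fads1, the delta-5 desaturase of polyunsaturated fatty acid synthesis, rose by 0.94 from 36.4, 47.7 and 60.2 CPM to 78.1, 89.2 and 112 CPM. The central enzymes Fasn (-0.92, adjusted p = 0.0312), Acly (-0.04) and Elovl6 (-0.41), named after their values were seen together with Scd1, were not called.

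Genes that hold triglyceride in the droplet and genes that release it changed as well. Agpat2, an acyltransferase of triglyceride synthesis whose loss causes lipodystrophy, measured 219, 516 and 639 CPM in WT mice and 141, 228 and 312 CPM in KI mice (log2 fold change -1.0, adjusted p = 0.00268), but the call was lost without the lymphocyte-rich mice (-0.87, adjusted p = 0.015). Of the 17 genes of triglyceride synthesis 1 was called higher and 4 lower, and only 1 or 2 were called in 11 of the 16 fits that leave out a mouse, so this list's count depends on single mice. Bscl2, which encodes seipin, a protein of droplet formation also tied to lipodystrophy, fell by 0.91 from 209, 258 and 336 CPM to 116, 142 and 156 CPM without overlap. Among 26 genes of lipolysis and lipid droplets 4 were called higher and 4 lower. Hcar1 and Hcar2, receptors for lactate and for hydroxybutyrate and niacin that restrain lipolysis in adipocytes, fell by 1.66 and 1.63 on the log2 scale. Hcar1 measured 24.8, 37 and 61.9 CPM in WT mice and 8.27, 11 and 19.6 CPM in KI mice, which did not overlap. Lipe, hormone-sensitive lipase, rose by 0.54 from a median of 2030 to 3070 CPM, and Cidea, a droplet protein typical of brown and beige adipocytes, rose by 1.55 from 7.63 to 20.3 CPM. In the brown and beige list as a whole, 10 of 17 were positive with a median of 0.44, while 2 were called higher and 5 lower (1 higher and 3 lower without the muscle-rich KI mice), among them Otop1 (-1.49), a proton channel of thermogenic fat.

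Fatty acid activation and glyceride-glycerol supply are represented by single genes. Acsl1, which joins fatty acids to coenzyme A, measured 983, 1580 and 2510 CPM in WT mice and 571, 656 and 1110 CPM in KI mice, with overlapping groups (log2 fold change -1.13 ± 0.17, adjusted p = 0.00012). Angptl8, an insulin-induced regulator of lipoprotein lipase, fell by 0.96. Pck1, whose enzyme makes glycerol backbone for re-esterification in fat, rose from 603, 956 and 1350 CPM to 1840, 2400 and 4180 CPM without overlap (1.40 ± 0.18, adjusted p = 1.56e-05). In the list of insulin signalling 5 of 24 genes were called higher and 1 lower. Slc2a4, the insulin-responsive glucose transporter, rose by 0.50 and Trarg1, a protein of its vesicles, by 0.58.

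Several antioxidant and conjugating enzymes were among the called rises. Of 43 NRF2 target and glutathione genes 9 were called higher and 3 lower, with 26 positive and 17 negative and a median of 0.16, and leaving out any single mouse gave 10 to 12 calls in all. Gpx3 (ENSMUSG00000018339, chromosome 11, 54902453 to 54910377), a secreted glutathione peroxidase made by fat, measured 147, 262 and 535 CPM in WT mice and 1210, 1550 and 1780 CPM in KI mice, 5.39-fold higher on fitted values (log2 fold change 2.43 ± 0.20, adjusted p = 1.18e-07). Gstm1 (ENSMUSG00000058135, chromosome 3, 108012255 to 108017973), a glutathione transferase, measured 210, 285 and 446 CPM in WT mice and 518, 672 and 872 CPM in KI mice (1.19 ± 0.13, adjusted p = 4.12e-06). Every KI mouse exceeded every WT mouse for both. As a symbol class, the Gst genes had 9 of 17 members called higher and 0 lower (8 higher without the lymphocyte-rich mice), with a median of 0.38. The transferases Gsta4 and Gsta3, the latter from 24, 33.3 and 39.4 CPM to 46.4, 77.5 and 112 CPM, rose by 1.35 and 1.26. Gst genes lie in clusters of near-identical copies, so reads shared between copies leave the split among them uncertain. The ferritin gene Fth1, which stores iron, rose by 0.52, and Tkt, the transketolase of the pentose phosphate pathway, by 0.91. A pair of closely similar aldehyde dehydrogenases went opposite ways, Aldh1a1 by 1.03 and Aldh1a7 by -1.24.

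Mitochondrially encoded RNA was low in every KI mouse. Its share of all counts was 2.15, 2.52 and 3.68% in KI mice and 5.4, 9.89 and 14.8% in WT mice, so the highest KI mouse lay below the lowest WT mouse. All 13 mitochondrially encoded mRNAs were called lower (11 without the muscle-rich KI mice), with a median of -1.78. mt-Co1, a subunit of complex IV, measured 18500, 37800 and 58600 CPM in WT mice and 6290, 7210 and 13000 CPM in KI mice. The ribosomal RNA genes mt-Rnr1 and mt-Rnr2, named after their values were seen, were not called (-1.08, adjusted p = 0.0223, and -1.04, adjusted p = 0.0243) but were called without the lymphocyte-rich mice (-1.39 and -1.35). Among pseudogenes, 12 were nuclear copies of mitochondrial sequence by shared words of 31 bases, and all 12 were called lower, with log2 fold changes from -2.21 to -1.68. Gm29216 and Gm10925, also named after their values were seen, are 2 of these copies. The other 576 pseudogenes had 12 called higher and 11 lower (3.99%), so 12 of the class's 23 falls are in genes that share sequence with mitochondrial transcripts. The shared part was as small as 13.2% of words (Gm11407), and whether reads were shared was not tested. Leaving all mitochondrial genes out of the counts gave 1855 calls.

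Several groups of nuclear genes for mitochondrial proteins had called rises of small size. Of 40 subunits and assembly factors of complexes II to V, 10 were called higher and 0 lower with a median of 0.18 (6 called without KI mouse 6), and of 34 genes of the TCA cycle and pyruvate entry, 12 were called higher and 2 lower with a median of 0.19. The TCA count dropped to 8 in all without KI mouse 6 or WT mouse 1 and to 9 without WT mouse 5 or WT mouse 7. Sdhb, a subunit of complex II, rose by 0.70 from 96.4, 101 and 116 CPM to 131, 173 and 183 CPM. Idh2, the mitochondrial isocitrate dehydrogenase, rose by 0.67. Of 15 mitochondrial chaperones and proteases, 4 were called higher, among them Hspa9 (1.05) and Lonp1 (0.63), the chaperone and the protease of the mitochondrial matrix. Mitochondrial beta-oxidation had 4 of 21 called higher and 1 lower with a median of -0.01 (3 called without KI mouse 6 or WT mouse 5, 8 without WT mouse 7). Carriers of the inner membrane (Slc25) had 2 of 41 called higher and 3 lower (12.2%, against 11.5% of all genes) with a median of -0.03. Slc25a33, a pyrimidine nucleotide carrier, was higher by 1.33. Slc25a10, the dicarboxylate carrier, was lower by 1.32, from 228, 326 and 398 CPM to 79.8, 128 and 144 CPM. Chchd10, a protein of the intermembrane space, rose by 2.61 from 30.9, 52.4 and 81.8 CPM to 207, 326 and 451 CPM, and the predicted gene Gm867, which overlaps it by a few bases only, rose by 2.34. Acot2, a mitochondrial acyl-CoA thioesterase, rose by 2.16.

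Stress and tRNA charging genes had the largest shares called higher of the 51 lists drawn. Of 40 ATF4 and CHOP target genes 20 were called higher and 0 lower with a median of 0.57, and of 21 cytosolic aminoacyl-tRNA synthetases 11 were called higher and 0 lower with a median of 0.30. Eprs, which charges both glutamate and proline tRNA, measured 85.6, 105 and 126 CPM in WT mice and 179, 214 and 263 CPM in KI mice, and Aars rose by 0.74. The C/EBP-ATF response element, searched as TGATGNAA on both strands, was found in 10 of 35 listed promoters of the ATF4 and CHOP list, in 5 of 14 of the synthetases and in 327 of 11643 of all tested genes (2.81%). Among called members it was found in 5 of 18 and in 3 of 8. The ATF4 and CHOP list is by name a list of targets, so its larger share is a property of the list and no result of these data. The promoter of Trib3, a pseudokinase of this response that rose by 3.18, is printed as the example, with the element in capitals as it reads from the other strand, at chr2:152344011-152344310 on the minus strand.
Trib3: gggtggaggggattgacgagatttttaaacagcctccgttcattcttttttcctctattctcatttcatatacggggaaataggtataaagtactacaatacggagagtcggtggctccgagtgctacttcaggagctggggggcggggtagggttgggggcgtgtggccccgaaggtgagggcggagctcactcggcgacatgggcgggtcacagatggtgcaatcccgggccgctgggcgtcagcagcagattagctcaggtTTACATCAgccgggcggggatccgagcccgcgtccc
By contrast, 3 of 24 chaperones and folding enzymes of the endoplasmic reticulum were called higher (Ero1l, Xbp1 and Pdia4), with a median of 0.09. That is 12.5% called, against 11.5% of all genes. Of 16 cytosolic heat shock genes, 3 were called higher (18.8%). Translation initiation and elongation factors, as a symbol class, had 13 of 67 called higher and 1 lower (9 higher without the lymphocyte-rich mice), including Eif4ebp1 (0.68), an inhibitor of cap-dependent translation. Cytosolic ribosomal protein genes had 1 of 86 called higher and 0 lower (1.16% called), and mitochondrial ribosomal protein genes 9 of 77 higher and 0 lower (11.7% called). Slc7a5, the large neutral amino acid transporter, rose by 1.57 from 5.26, 6.89 and 10.1 CPM to 18.5, 21.8 and 27.9 CPM.

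Secreted adipocyte proteins changed in both directions. Of 23 tested, 3 were called higher and 8 lower, 11 fold changes were positive and 12 negative, with a median of -0.08, and the sum of the list was 20000, 24300 and 28800 CPM in WT mice and 14100, 19600 and 22000 CPM in KI mice. Adipoq (ENSMUSG00000022878, chromosome 16, 23146536 to 23158028), the adiponectin gene, measured 2490, 2870 and 3640 CPM in WT mice and 1430, 1640 and 2140 CPM in KI mice without overlap (log2 fold change -0.85 ± 0.10, adjusted p = 1.05e-05). Lep, the leptin gene, measured 1880, 2480 and 4190 CPM in WT mice and 1140, 1720 and 2070 CPM in KI mice (-0.62 ± 0.15, adjusted p = 0.00621). The leptin call did not hold with KI mouse 3, 5, 6 or 7 or WT mouse 1, 3, 5 or 6 left out, with an adjusted p of up to 0.0151. Rbp4, a carrier of retinol, fell by 0.91 (without the lymphocyte-rich mice -0.84, adjusted p = 0.0112, no longer called). Lep and Rbp4 were named after their values were seen.

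Hp (ENSMUSG00000031722, chromosome 8, 109575128 to 109579172), haptoglobin, which binds free haemoglobin, measured 2320, 3740 and 6260 CPM in WT mice and 541, 692 and 924 CPM in KI mice, 5.49-fold lower on fitted values (log2 fold change -2.46 ± 0.18, adjusted p = 2.05e-08). Orm1, the orosomucoid gene, measured 210, 294 and 396 CPM in WT mice and 66.8, 80.7 and 149 CPM in KI mice (-1.71). Serpina3n, an inhibitor of serine proteases, measured 412, 641 and 973 CPM in WT mice and 108, 175 and 217 CPM in KI mice (-1.94). None of the 3 genes overlapped between genotypes. Trf, the transferrin gene (named after its values were seen), fell by 1.17. Serpin genes as a class had 5 of 26 called lower and 0 higher (7 lower without the lymphocyte-rich mice), with a median of -0.36. They form clusters of close copies, so the split among Serpina members is uncertain. Agt, the precursor of angiotensin, moved against the rest, from 1.27, 2.4 and 3.18 CPM to 10.5, 18.4 and 25.8 CPM (2.95).

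Of 22 complement genes tested, 1 was called higher and 6 lower, with 5 positive and 17 negative and a median of -0.28. C6 (ENSMUSG00000022181, chromosome 15, 4727175 to 4814967), a component of the membrane attack complex, measured 19.6, 30.7 and 50.8 CPM in WT mice and 0.534, 1.01 and 1.41 CPM in KI mice, 33.1-fold lower (log2 fold change -5.05 ± 0.24, adjusted p = 2.98e-10). C3, the central component, fell by 1.66 with overlapping groups of 132, 357 and 628 CPM in WT mice and 51.7, 91.5 and 208 CPM in KI mice, a call that was lost without the filter on low counts. C2, a protease of the classical pathway, was the 1 member called higher (0.90), from 12, 13.8 and 21.1 CPM to 22.6, 29.1 and 34.9 CPM.

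**Figure D4:**
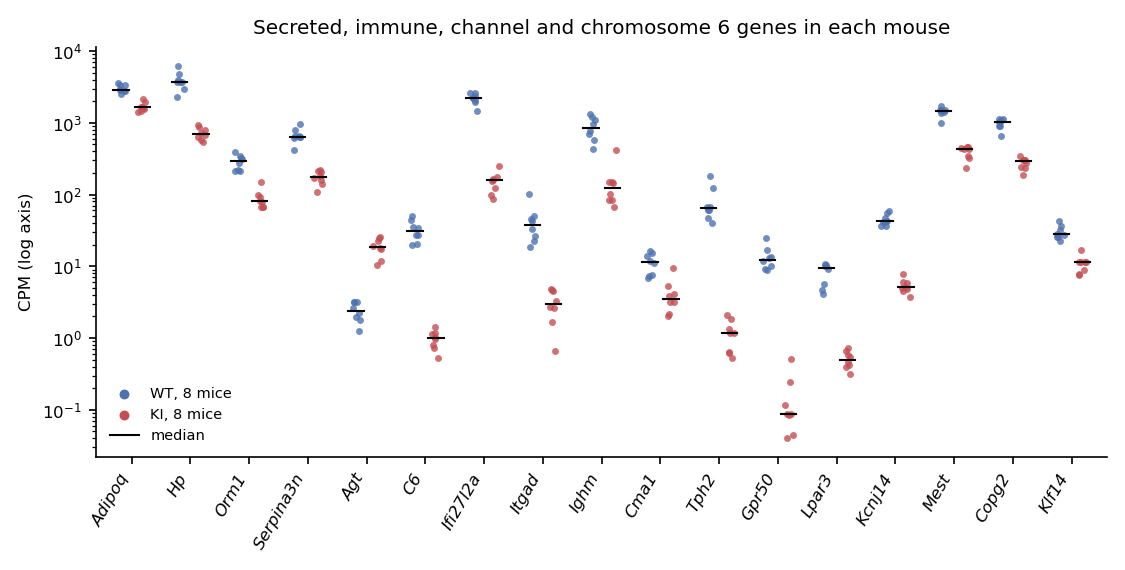
CPM (log axis) of 17 secreted, immune, channel and chromosome 6 genes in each WT and KI mouse, with the median of each genotype as a bar. All but Cma1 separate the genotypes in every mouse, Agt with KI mice higher (10.5 to 25.8 against 1.27 to 3.18 CPM) and the others with KI mice lower.

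Matrix genes changed singly, with more negative than positive fold changes. All 14 fibrillar and fibril-associated collagens tested were negative, with a median of -0.40. Only 2 were called (14.3%, against 11.5% of all genes), or 5 without KI mouse 5 and 4 without WT mouse 8. Col1a1, named after its values were seen, was not called (-0.44, adjusted p = 0.097). Col16a1, a fibril-associated collagen, was called, from 49.3, 76.6 and 91.9 CPM to 17.8, 22.2 and 41.6 CPM (-1.55). Of 36 proteoglycans and matricellular proteins, 2 were called higher and 4 lower (16.7% called, against 11.5% of all genes), with 29 negative. Lum, the collagen-binding proteoglycan lumican, measured 65.3, 96.3 and 164 CPM in WT mice and 24.8, 39.9 and 54.8 CPM in KI mice (-1.39), and Comp, which bridges collagen fibrils, fell by 1.49. Lox, which crosslinks collagen, fell by 0.89, from 204, 232 and 295 CPM to 93.3, 134 and 162 CPM. Thbs1, the matricellular thrombospondin 1, rose by 1.58 with overlapping groups, a call lost without the lymphocyte-rich mice (1.43, adjusted p = 0.0183).

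Proteases and their inhibitors split evenly, with 3 of 33 called higher and 3 lower (18.2% called, against 11.5% of all genes). Mmp11, a stromelysin made in fat, rose from 42.8, 81.7 and 113 CPM to 156, 278 and 420 CPM (1.82, adjusted p = 8.33e-06), and Timp4 and Timp3, inhibitors of matrix metalloproteinases, rose by 1.23 and 0.60. Adam12, a metalloprotease of activated mesenchymal cells, fell from 22.4, 38.6 and 72.3 CPM to 3.2, 6.13 and 17.3 CPM (-2.40). Of 25 progenitor and fibroblast markers, 1 was called higher (Ebf1) and 5 lower (Lum, Cd55, Sema3c, Dpt and Fap), with a median of -0.21, and their summed level overlapped.

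Growth factor genes changed in both directions, 6 of 42 higher and 7 lower. Vegfa, which drives vessel growth, measured 182, 236 and 277 CPM in WT mice and 297, 430 and 544 CPM in KI mice (log2 fold change 0.89), but only 1 of 20 endothelial markers was called (0 with KI mouse 1, 4 or 6 or WT mouse 1, 2, 4, 5, 6 or 7 left out) and their sum overlapped between genotypes (4440 to 5700 CPM in WT mice, 4450 to 5600 CPM in KI mice). Igfbp4, a binding protein of insulin-like growth factors, rose from 320, 423 and 472 CPM to 686, 1080 and 1290 CPM (1.36, adjusted p = 2.46e-07). Fgf13, an intracellular member of the fibroblast growth factor family, fell by 1.60, the receptor Fgfr2 by 1.38, and Hgf, the hepatocyte growth factor gene, by 1.35. In the Wnt pathway 1 of 32 was called higher and 3 lower, 12.5% called against 11.5% of all genes. Wif1, a secreted Wnt inhibitor at 0.814, 2.04 and 4.61 CPM in WT mice, fell by 2.21, and Wnt5a, a non-canonical ligand, fell by 0.94 from 24.9, 27.2 and 36.6 CPM to 7.52, 15.4 and 19.4 CPM.

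Interferon-stimulated genes were low as a group, by modest amounts apart from 1 gene. Of 38 tested, 36 were negative, with a median of -0.34, and 7 were called lower and 0 higher (11 without KI mouse 2, 11 without WT mouse 7). Ifi27l2a (ENSMUSG00000079017, chromosome 12, 103442167 to 103443680), a small membrane protein induced by interferon, measured 1470, 2220 and 2590 CPM in WT mice and 85.5, 158 and 252 CPM in KI mice, 14.3-fold lower (log2 fold change -3.84 ± 0.20, adjusted p = 6.25e-10). It alone made up most of the list's summed level in WT mice, which was 2510, 3530 and 4040 CPM. Rsad2, which encodes the antiviral protein viperin, followed at -0.96 without overlap, from 25.5, 35 and 43.5 CPM to 11.5, 18.1 and 22 CPM. The interferon-stimulated response element was found in 17 of 29 listed promoters of the list, in 2 of 4 of its called members and in 455 of 11643 of all tested genes (3.91%). The list was named for interferon response, so its larger share is a property of the list and no result of these data.

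General macrophage markers were not called with all mice, while some genes of activated or lipid-laden macrophages were. Of 16 pan-macrophage markers 0 were called (3 without KI mouse 5, 1 without WT mouse 5, and 3 lower without both muscle-rich KI mice), and their sum was 2000, 2360 and 3120 CPM in WT mice and 1470, 2090 and 3530 CPM in KI mice. Of 15 lipid-associated macrophage markers, 3 were called lower and 0 higher with a median of -0.85, a count that rose to 9 without KI mouse 5, the KI mouse highest for the pan-macrophage sum. Itgax, which encodes the CD11c integrin chain, measured 23.7, 61 and 87 CPM in WT mice and 9.97, 19.6 and 37.7 CPM in KI mice (-1.44, adjusted p = 0.0018), and Fabp5 and Ctsk, a fatty acid binding protein and a cathepsin also made by adipocytes, fell by 0.86 and 0.85. Itgad, the alpha chain of another leukocyte integrin, fell from 18.8, 37.5 and 101 CPM to 0.668, 3.03 and 4.88 CPM (-3.75, adjusted p = 1.41e-05). Of 32 proliferation genes 29 were negative and 3 were called lower (9.38% called, against 11.5% of all genes). The count was 1 without KI mouse 4, 5 without KI mouse 2 and 6 without KI mouse 5. Cdk1, the mitotic kinase, fell by 1.32 from 7.73, 9.64 and 15.5 CPM to 2.63, 3.76 and 6.21 CPM.

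The list of neutrophil, mast cell and eosinophil markers had the largest share called lower of the cell type lists. Of 9 tested, 5 were called lower and 0 higher, with 2 positive, 7 negative and a median of -0.75. Every fit that left out 1 mouse also gave 5 calls. The called members were the neutrophil gene S100a8 and the mast cell genes Cma1, Mcpt4, Tpsb2 and Cpa3, so the calls were mostly in mast cell genes. S100a8, a calcium-binding protein of neutrophils, measured 4.08, 7.67 and 13.2 CPM in WT mice and 0.846, 2.27 and 3.61 CPM in KI mice (-1.91, adjusted p = 0.000145). The mast cell chymases Cma1 and Mcpt4 fell by 1.44 and 1.40, Cma1 from 6.8, 11.5 and 16.5 CPM to 2.05, 3.53 and 9.42 CPM with 1 KI mouse inside the WT range, and Cpa3, the mast cell carboxypeptidase, fell by 0.75. Tpsb2, a mast cell tryptase named after its values were seen, fell by 1.35 but was not called without the lymphocyte-rich mice (adjusted p = 0.0109).

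Lymphocyte markers depended on the lymphocyte-rich mice. With all mice, 2 of 23 were called lower (8.7% called, against 11.5% of all genes), with a median of -0.30. Without KI mouse 2, 6 were called, and without the 3 lymphocyte-rich mice the median was -0.76 with 3 lower. Ighm (ENSMUSG00000076617, chromosome 12, 113418558 to 113422730), the constant region of IgM, measured 433, 853 and 1320 CPM in WT mice and 67.7, 123 and 411 CPM in KI mice, where KI mouse 2 was the highest. The genotypes did not overlap even so, and the log2 fold change was -2.56 ± 0.37 with all mice (adjusted p = 0.000139) and -2.83 without the 3. Ncr1, a receptor of natural killer cells, fell by 1.44 without overlap, from 1.09, 1.49 and 2.04 CPM to 0.31, 0.543 and 0.927 CPM. Tbx21, the transcription factor T-bet of type 1 lymphocytes, fell by 1.87, from 2.96, 5.48 and 9.42 CPM to 0.749, 1.47 and 2.64 CPM. No Schwann cell, pericyte, resident macrophage, erythroid or skeletal muscle marker was called, in lists of 15, 16, 13, 5 and 16 genes, although 1 pericyte marker was called with KI mouse 6, WT mouse 1 or WT mouse 8 left out and 1 resident macrophage marker with WT mouse 7 left out.

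Some of the largest falls by fold were in genes best known from neurons, named one by one because they were among the largest falls. Tph2 (ENSMUSG00000006764, chromosome 10, 115078641 to 115185022), the tryptophan hydroxylase of serotonergic neurons, measured 40.3, 64.1 and 183 CPM in WT mice and 0.534, 1.17 and 2.07 CPM in KI mice. Gpr50, an orphan receptor related to melatonin receptors, measured 8.91, 12.4 and 25 CPM in WT mice and at most 0.504 CPM in KI mice. Cacng5, a calcium channel gamma subunit, reached no more than 2 counts among the KI mice, which makes it at least 11.7-fold lower against a floor of 3 counts per mouse. Schwann cell and nerve markers had 0 of 15 called, with a median of 0.28 and sums of 346, 427 and 717 CPM in WT mice and 371, 559 and 842 CPM in KI mice.

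Ion channel genes were called in both directions. Of 44 potassium channel genes (Kcn), 3 were called higher and 9 lower (7 lower without the lymphocyte-rich mice), 27.3% in all, with a median of -0.28. Kcnj14, an inward rectifier, measured 35.9, 42.4 and 59.3 CPM in WT mice and 3.79, 5.09 and 7.72 CPM in KI mice (-3.07 ± 0.14, adjusted p = 2.31e-10). Kcne1l, an accessory subunit, fell by 3.15, and Scn8a, a voltage-gated sodium channel, by 2.27, from 21.1, 24.5 and 29.3 CPM to 3.34, 4.31 and 8.24 CPM. Calcium and sodium channel genes had 1 of 28 higher and 4 lower (17.9% called). Ligand-gated channels had 1 of 24 higher and 3 lower (16.7%, against 11.5% of all genes), with the glycine receptor gene Glra1 at -2.72 and the glutamate receptor gene Grid1 at -2.86. P2rx3, an ATP-gated channel of sensory neurons named after its values were seen, rose by 2.12, from 0.973, 1.41 and 1.79 CPM to 3.5, 6.76 and 7.7 CPM. Other large falls without overlap were in Lipf, a gastric-type lipase, from 29.5, 41.9 and 60.3 CPM to 1.05, 1.68 and 2.89 CPM, in Lpar3, a receptor of lysophosphatidic acid, from 4.13, 9.61 and 10.7 CPM to 0.312, 0.502 and 0.733 CPM, and in the receptor tyrosine kinase gene Ret, from 59.2, 70.6 and 91.9 CPM to 14.7, 20.7 and 26.8 CPM. Among transporters, the solute carrier genes (Slc) had 14 of 251 higher and 24 lower, 15.1% called against 11.5% of all genes. Slc36a2, an amino acid transporter of adipocytes, was at -1.66 and Slc13a4, a sulphate transporter, at -1.95.

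A stretch of chromosome 6 that includes imprinted genes held a run of large falls. Mest (ENSMUSG00000051855, chromosome 6, 30723547 to 30748465), an imprinted gene that marks expanding adipocytes, measured 992, 1470 and 1740 CPM in WT mice and 236, 430 and 464 CPM in KI mice, 3.68-fold lower (log2 fold change -1.88, adjusted p = 2.73e-08). Copg2 (chromosome 6, 30747554 to 30896794) encodes a coatomer subunit and overlaps the end of Mest, so reads in that overlap may be shared where strand was not used, and it was 3.55-fold lower, from 648, 1020 and 1120 CPM to 190, 290 and 345 CPM. Klf14 (30956023 to 30959078), a transcription factor gene also known for imprinting, measured 22.5, 27.9 and 43.1 CPM in WT mice and 7.6, 11.3 and 16.9 CPM in KI mice (-1.47). None of these 3 genes overlapped between genotypes. Klhdc10, Tmem209, Cep41, Zc3hc1 and Lncpint within 500000 bases of Mest were not called, with Cep41 at 0.03 and Zc3hc1 at 0.21. The stretch, and Mest and Klf14 in it, were chosen after their values were seen.

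The region around Mfn2 itself was looked at, because the KI chromosome descends from 1 founder. Of 93 genes that start within 5000000 bases of Mfn2, 14 were called higher and 2 lower (17.2% called, against 11.5% of all genes), with a median of 0.07.

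Long non-coding RNA genes rose and fell about equally, 79 higher and 64 lower of 1763. Neat1, the scaffold RNA of nuclear paraspeckles, measured 1520, 2050 and 2750 CPM in WT mice and 2790, 3050 and 3780 CPM in KI mice without overlap (0.59, adjusted p = 0.000614). E230016M11Rik, an RNA without a known role here, rose from 7.46, 8.75 and 10.6 CPM to 21.9, 34.2 and 40.7 CPM (1.82). Gm16028 and Gm39091 fell by 3.97 and 3.82, and both lie antisense to other genes, whose reads cannot be told apart without strand. Among other classes, Trim genes had 7 of 46 called higher and 0 lower, with Trim46 at 1.43 (6 higher and 2 lower without the lymphocyte-rich mice), and zinc finger genes (Zfp) had 12 of 384 higher and 6 lower (4.69%). Of 19 circadian clock genes 4 were called higher and 0 lower, including the repressor gene Bhlhe40 (0.88), from 30.2, 35.7 and 46.9 CPM to 35, 71 and 82.6 CPM with overlapping groups.

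The KI effect was then tested against the effect on chow in the same depot, and 110 of 17400 genes differed between diets at an adjusted p of 0.01 (0.632%). Chow and HFD mice were separate animals, and the 2 diets came in separate tables with different depth, so a difference between diets cannot be told apart from one between those tables. De novo lipogenesis held 8 of the 110, out of 19 genes. For Acly, ATP citrate lyase, the KI effect was -0.04 on HFD and 2.51 on chow, a difference of -2.54 ± 0.40 (adjusted p = 0.000945). Elovl6, an elongase of saturated fatty acids, gave -0.41 and 3.16 (difference -3.56, adjusted p = 0.00151), Fasn, fatty acid synthase, -0.92 and 1.99 (difference -2.89, adjusted p = 0.00404), and Slc25a1 -1.08 and 1.85 (difference -2.92, adjusted p = 0.00093). Of the list's 8 differences, 7 had the lower value on HFD, and Fads1 was the exception (0.94 on HFD, -0.51 on chow, difference 1.47). The list's median KI effect was 0.05 on HFD and 0.95 on chow. Agpat2 (difference -1.97) and Angptl8 (difference -2.85) went the same way as the lipogenic genes.

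**Figure D5:**
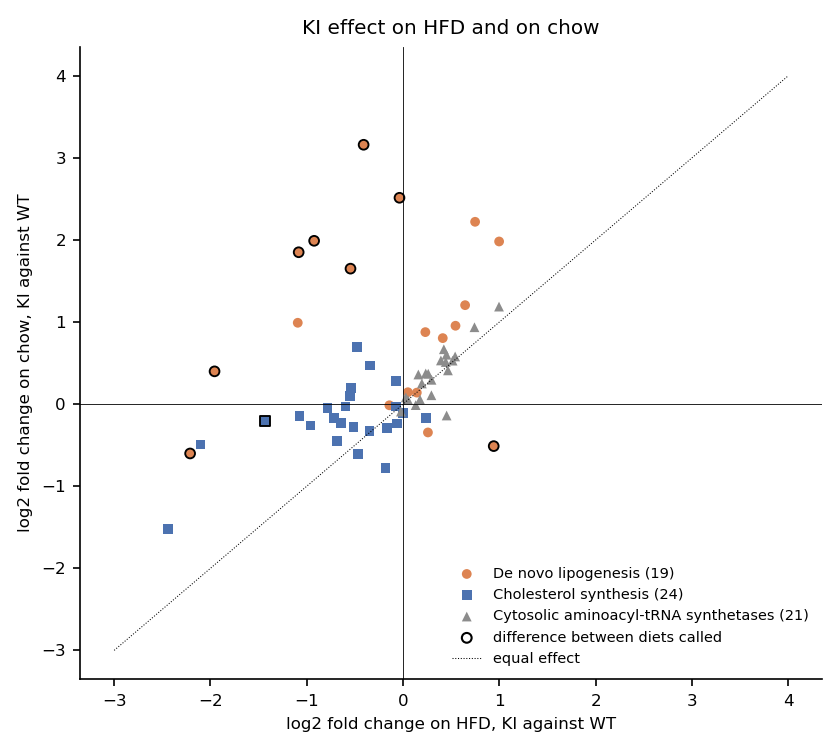
Log2 fold change of KI against WT on HFD (x axis) and on chow (y axis) for genes of de novo lipogenesis (19), cholesterol synthesis (24) and cytosolic aminoacyl-tRNA synthetases (21), with black outlines where the difference between diets was called. Lipogenic genes such as Elovl6 (-0.41, 3.16) and Acly (-0.04, 2.51) stand above the line of equal effect, several cholesterol genes such as Insig1 (-2.10, -0.49) lie to the left of it near the horizontal axis, and the synthetases lie near the line.

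Cholesterol synthesis had a median KI effect of -0.54 on HFD and -0.19 on chow, but only 1 gene, Nsdhl, passed the test of the difference (-1.22, adjusted p = 0.00451). None of the 21 synthetases differed between diets, with medians of 0.30 and 0.37. Several rises on HFD were larger than on chow, in Gpx3 (2.43 against 0.42, difference 2.03 ± 0.41, adjusted p = 0.00791), Gstm1 (1.19 against -0.22, difference 1.43), Apoe (1.18 against 0.15, difference 1.05) and Timp4 (1.23 against -0.51, difference 1.75). The Agt effect was 2.95 on HFD and -1.71 on chow, where it was not called (adjusted p = 0.137), and the difference was called (difference 4.67 ± 0.70, adjusted p = 0.00063). Falls seen on HFD stood against a positive value on chow for Ncan, a brain-type proteoglycan (-2.68 against 0.80, not called on chow, difference -3.46, adjusted p = 2.97e-06), Hephl1, a copper-dependent iron oxidase (-2.37 against 3.09, difference -5.46), and Hebp2, a haem-binding protein (-2.01 against 1.85, difference -3.84). Cpa3 of mast cells did so too (-0.75 against 1.61, difference -2.35).

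Against BAT of mice on the same diet, 485 of 17214 genes differed in their KI effect (2.82%). The BAT and inguinal columns may come in part from the same mice, and the test treats them as independent. Apoe (1.18 in inguinal WAT, -0.92 in BAT, difference 2.07 ± 0.29, adjusted p = 3.48e-05), Gstm1 (1.19 and -0.24, difference 1.40) and Igfbp4 (difference 1.68) rose in inguinal WAT beyond their change in BAT. Hp (difference -1.66, adjusted p = 3.48e-05), Ifi27l2a (-3.84 and -1.22, difference -2.65) and Insig1 (-2.10 and -0.17, difference -1.96) fell further in inguinal WAT. Copg2 (-1.83 and 0.11, difference -1.97), Ret (-1.86 and 0.28, difference -2.17), Ptprk, a receptor tyrosine phosphatase (-0.89 and 0.23, difference -1.15), and Slco3a1, an organic anion transporter (-1.26 and 0.20, difference -1.50), were lower in inguinal WAT and had values near 0 or above it in BAT. Of the 25 cholesterol genes 4 differed between depots, and none of the 21 synthetases did. BAT and inguinal WAT differ in their cell content, whose part in these differences was not tested.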

How the data were processed

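Per the labels and the study's methods, RNA of at least RNA integrity number 8 was sequenced paired-end, and the authors used cutadapt for trimming, STAR for alignment (GRCm38) and featureCounts for counting. Tool versions, the annotation release and the strand setting are not given in the sources used here. The deposited values are raw counts per gene, 1 column per mouse, with 2 technical replicate libraries merged. Of 54838 entries, 1884 without counts were left out, and 200 entries of 99 shared symbols held identical values within a symbol and were kept once, which left 52853 genes.

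Counts were scaled by TMM, filtered with filterByExpr and tested with edgeR 4.0.16 (R 4.3.3), robust quasi-likelihood, n = 8 mice per genotype. Genes with a Benjamini-Hochberg adjusted p below 0.01 over all genes tested are called. DESeq2 1.42.0, which the study used, was run as an alternative. Differences between diets and depots were interaction terms in fits of 4 groups, with mice treated as independent between depots, although the labels leave it possible that some gave both tissues. Levels are CPM on TMM-adjusted library totals, and fold changes were computed on fitted values. The scripts were tested on simulated data.

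The comparison, the 55 gene lists, the 33 symbol classes and the rule for named genes were chosen with earlier results of these data known. The rule took Mfn2, the 15 largest called rises and falls without overlap and a mean of at least 1 CPM, the 8 with the largest change in CPM each way, up to 3 each way in each list or class (the 2 most abundant where none was called), 3 each way among non-coding genes, and the 5 strongest differences between diets and between depots. Genes outside it are named as such. The alternatives tried were other scalings, count filters, thresholds and tools, 1 fit of all groups, a replicate block, each mouse left out, and the mice rich in lymphocyte or muscle RNA left out. Totals of 17572752 to 25680411 counts per mouse set the precision, and a gene with 0 to 3 counts in a group is compared only against a floor of 3 counts per mouse. P-values test the difference between genotypes, or the change of that difference between diets or depots, against the spread between mice. Some genes are not reported here.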

Additional observations from a re-analysis of the deposited data

Results flagged for a closer look

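In 294 groups of 8 values (a named gene or a marker list in 1 genotype), 32 had 1 mouse far from the other 7, measured as its gap to the nearest mouse over the whole range of the genotype. Chance gives about 1 in 20 such groups. KI mouse 2 stood apart for the lymphocyte markers (0.939), Ighm (0.759), mt-Co1 (0.554) and, at the low end, Lonp1 (0.587). KI mouse 3 was high for Hmgcs1 (0.802) and the epithelial markers (0.568). KI mouse 5 was high for resident macrophage markers (0.619), Col1a1 (0.6), Gpr50 (0.562), Insig1 (0.542) and Cacng5, where it was the only KI mouse with any count (1). Other KI mice stood high for Elovl6 (0.664) and Orm1 (0.63) in mouse 1, Cma1 (0.552) in mouse 4, Acsl1 (0.543) in mouse 6 and Klf14 (0.577) in mouse 8.

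WT mouse 4 was high for Gm39091 (0.647), Itgad (0.617), Acly (0.587), Acss2 (0.582), Pnpla3 (0.57), Hephl1 (0.542) and Hcar1 (0.541). WT mouse 1 was high for Sdhb (0.668), Cdk1 (0.579) and Wif1 (0.536). WT mouse 2 was high for erythroid markers (0.663) and low for pericyte and smooth muscle markers (0.655), and WT mouse 3 was high for Gpx3 (0.558). WT mouse 7 was high for Glra1 (0.694) and Lep (0.583) and low for Copg2 (0.559).

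The KI effect differed between diets, by the interaction test at an adjusted p of 0.01, for 27 of the named genes. Given as the log2 effect on HFD minus that on chow, the difference was positive for Agt (4.67), Gpx3 (2.03), Timp4 (1.75), Fads1 (1.47), Rbp4 (1.46), Gstm1 (1.43), Apoe (1.05) and Igfbp4 (0.94). It was negative for lipid genes, namely Elovl6 (-3.56), Slc25a1 (-2.92), Fasn (-2.89), Angptl8 (-2.85), Acly (-2.54), Scd2 (-2.35), Agpat2 (-1.97), Pnpla3 (-1.59), Fabp5 (-1.41) and Nsdhl (-1.22). It was also negative for Hephl1 (-5.46), Hebp2 (-3.84), Ncan (-3.46), Cpa3 (-2.35), Gm867 (-2.32), Mmp11 (-2.18), Chchd10 (-2.15), Orm1 (-1.82) and Gm10925 (-1.45).

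Between depots, as the effect in inguinal WAT minus that in BAT, 39 named genes differed. The difference was positive for Agt (4.03), P2rx3 (3.06), Apoe (2.07), Rbp4 (1.95), Gpx3 (1.89), Igfbp4 (1.68), C2 (1.63), Aldh1a1 (1.59), Chchd10 (1.56), Gstm1 (1.40), Pck1 (1.38), Gsta4 (1.35), Acacb (1.19), Gm867 (1.16) and Fads1 (1.11). It was negative for the cholesterol genes Insig1 (-1.96), Hmgcs1 (-1.0) and Cyp51 (-0.91) and for Agpat2 (-1.41), Angptl8 (-1.38), Bscl2 (-0.98), Acsl1 (-0.96), Otop1 (-1.49) and Slc36a2 (-1.46). Secreted and immune genes with a negative difference were Ifi27l2a (-2.65), Orm1 (-1.90), Hp (-1.66), Cpa3 (-1.66) and Adam12 (-2.13). The rest were the mitotic kinase gene Cdk1 (-1.89), Cacng5 (-7.21, a fitted value of a gene with nearly no KI counts), Ncan (-2.75), Hebp2 (-2.38), Ret (-2.17), Copg2 (-1.97), Slco3a1 (-1.50), mt-Co1 (-1.45), Gm29216 (-1.41) and Ptprk (-1.15).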

How the results depend on the processing

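Of 121 called genes whose values the text gives, 120 were called with each mouse left out in turn, and Lep was not in 8 of the 16 fits. Over 3627 values of the genes so given under all alternatives, 3565 kept their call or lack of one, 44 lost the call and 18 gained it. Where a gene was called in the main fit or in the alternative, 0 changed sign. Genes called in neither could change sign. With 1 mouse left out, Acly ran from -0.12 to 0.06 and Scd1 from -0.03 to 0.17. The number of genes called on HFD ran from 1460 (without KI mouse 6) to 2338 (without KI mouse 2) with 1 mouse left out, the number called higher from 703 to 1236 and the number called lower from 739 to 1102. At an adjusted p of 0.05 there were 3448 calls (1874 higher, 1574 lower), and at 0.001 there were 880 (429 higher, 451 lower). DESeq2 called 1364 genes lower and 2754 in all, which include all 1886. A single fit of all 6 groups called 1242 genes (635 higher), and Acss2, Cpa3, Ctsk, Itgax, Lep, Neat1, Slc25a1, Slc2a4, Tkt and Trarg1 were not among them. Other scaling or filters gave 1655 to 1857 calls. Genes that differed between diets numbered 168 with at least 10 counts in every mouse and 500 at an adjusted p of 0.05, and those that differed between depots 1280 at 0.05. The cause of these changes was not tested.

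Mice of both genotypes carry the numbers 1 to 8. Correlations of the deviations of same-numbered mice ran from -0.244 to 0.654, with 2 of 8 above 0.1. No reference value was used here for them, so they cannot tell whether equal numbers pair mice, for example by litter or cage. A replicate block gave 1545 calls (801 higher, 744 lower), 1402 of them among the 1886, and did not call Agpat2, C3, Lep or Thbs1.

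Chow and BAT columns held less depth than the HFD columns of inguinal WAT, which limits the power of the tests between diets and depots.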

Other observations

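Several gene groups not described above moved little or in both directions. Of 25 peroxisomal genes 2 were called lower and 0 higher, with a median log2 fold change of -0.10. Autophagy and lysosome genes had 3 of 35 called higher and 3 lower (17.1% called, against 11.5% of all genes), and hypoxia response genes 4 of 23 higher and 3 lower (30.4%). Genes of the TGF-beta and BMP pathway had 3 of 45 higher and 2 lower (11.1%). Branched-chain amino acid catabolism had 4 of 20 called higher and 0 lower, but 2 were called in 9 of the 16 fits that leave out a mouse. Chemokines and their receptors had 1 of 36 called lower (up to 3 with a mouse left out), with a median of -0.30. Homeobox and T-box factors had 0 of 56 called higher and 1 lower, the T-box factor Tbx21. Epithelial markers, of which 5 were tested, summed to 4.73, 9.99 and 15.9 CPM in WT mice and 2.48, 3.1 and 5.43 CPM in KI mice.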
